A study of Mus musculus with 8 samples.

Results

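The genes described here encode topoisomerase II and the condensin complexes of the mouse, the proteins that untangle and compact chromosomes. They are 10 of the 21959 genes in the deposited expression table and were chosen by name: Top2a and Top2b for topoisomerase II, Smc2 and Smc4 for the subunits that both condensins share, Ncapd2, Ncapg and Ncaph for condensin I, and Ncapd3, Ncapg2 and Ncaph2 for condensin II. RNA was sequenced from oocytes of newborn ovaries at postnatal day 1 (P1) of Rbpms2 knockout mice and of wild-type mice, with 4 libraries per genotype. Each library came from a tube of 5 to 10 putative primordial oocytes that were picked by mouth pipette from dissociated ovaries, and the RNA was amplified over 18 cycles. The labels name no strain, no deleted part of Rbpms2 and no animal per tube. Each p-value below is thus set against differences among tubes, and some of these can be technical.

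Topoisomerase II cuts a DNA duplex, passes another through the gap and reseals the cut. TOP2A is the form of dividing cells and is needed to separate sister chromatids, while TOP2B is also made in cells that no longer divide. Condensin is a ring that extrudes DNA loops: its SMC2 and SMC4 arms are joined by a kleisin (NCAPH or NCAPH2), which carries a pair of HEAT-repeat subunits (NCAPD2 and NCAPG in condensin I, NCAPD3 and NCAPG2 in condensin II). Condensin II is mostly nuclear throughout the cell cycle, whereas condensin I reaches the chromosomes of dividing somatic cells after the nuclear envelope breaks down. Oocytes of the newborn mouse ovary are in late meiotic prophase or have entered the dictyate arrest, and condensins are known to shape their chromosomes in the later meiotic divisions.

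Rbpms2 itself, an RNA-binding protein gene on chromosome 9 at 65629648 to 65660528 (GRCm38), had 38.4, 58.3, 31.0 and 42.5 FPKM (fragments scaled by transcript length and library depth) in knockout libraries 1 to 4, against 158, 167, 136 and 213 FPKM in wild-type libraries 1 to 4. It was lower in all 4 knockout libraries (log2 fold change -1.98, SE 0.22, adjusted p = 7.26e-05), and transcripts remained in each of them. The depth, as reads over all genes of the table, was 9554090 to 14526326 in knockout libraries and 8310774 to 11926922 in wild-type libraries. Oocyte markers (Ddx4, Dazl, Sycp3, Kit, Figla, Zp3, Gdf9 and Nobox) summed to 1724 to 2759 FPKM in knockout libraries and 2305 to 3598 FPKM in wild-type libraries, with 3 of the 8 called higher in the knockout and 5 lower. The higher ones were Ddx4, Dazl and Sycp3, and the lower ones Kit, Figla, Zp3, Gdf9 and Nobox, so the sums hide opposite changes. Zp3 had at most 0.444 FPKM in knockout libraries, against 444 to 1091 FPKM in wild-type libraries. Gdf9 had at most 0.968 FPKM in knockout libraries, against 142 to 383 FPKM in wild-type libraries. Markers of other ovarian cells were uneven. Granulosa markers summed to 427 FPKM in knockout library 3 and 121 FPKM in knockout library 2, stromal markers to 339 and 303 FPKM in the same libraries, and endothelial markers to 299 FPKM in knockout library 1. In wild-type libraries granulosa markers reached 53.7 FPKM and stromal markers 86.3 FPKM, both in library 3, while endothelial markers stayed at 1.99 to 2.84 FPKM. Of the marker genes of these other cells, C1qa, for example, had no read in the wild type, and Slc4a1 had none in the knockout. In pooled cells, fewer cells of a type and less RNA per cell cannot be told apart.

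Promoters of 3 of the 5 called genes are shown first, picked because they hold more than 1 match of the CCAAT letters. Many cell cycle promoters carry these letters. The promoter of Ncapg, which was also called, held 1 match and is not shown. The sequences are from RefSeq (GRCm38.p6), which gave a promoter for 9 of the 10 genes and 2 for Ncapd3; Smc4 had no entry. Each runs from 250 bases before the start site to 50 after it, on the gene's strand, with CCAAT or its reverse complement ATTGG in capitals. Those of Top2a (chr11:99024140-99024439, minus strand), Top2b (chr14:16364956-16365255, plus strand) and Ncapd2 (chr6:125191537-125191836, minus strand) are the 3 of the called genes with more than 1 match.
Top2a: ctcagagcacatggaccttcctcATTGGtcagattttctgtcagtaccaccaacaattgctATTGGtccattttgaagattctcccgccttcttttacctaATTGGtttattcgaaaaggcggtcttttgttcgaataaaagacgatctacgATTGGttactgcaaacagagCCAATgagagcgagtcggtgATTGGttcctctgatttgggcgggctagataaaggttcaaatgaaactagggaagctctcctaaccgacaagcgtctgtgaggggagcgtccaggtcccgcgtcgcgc
Top2b: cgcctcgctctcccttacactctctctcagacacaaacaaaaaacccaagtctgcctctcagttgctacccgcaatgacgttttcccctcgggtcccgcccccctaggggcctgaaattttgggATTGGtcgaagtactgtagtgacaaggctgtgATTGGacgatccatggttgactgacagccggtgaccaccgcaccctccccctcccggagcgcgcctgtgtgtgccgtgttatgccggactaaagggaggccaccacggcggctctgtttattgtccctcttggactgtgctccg
Ncapd2: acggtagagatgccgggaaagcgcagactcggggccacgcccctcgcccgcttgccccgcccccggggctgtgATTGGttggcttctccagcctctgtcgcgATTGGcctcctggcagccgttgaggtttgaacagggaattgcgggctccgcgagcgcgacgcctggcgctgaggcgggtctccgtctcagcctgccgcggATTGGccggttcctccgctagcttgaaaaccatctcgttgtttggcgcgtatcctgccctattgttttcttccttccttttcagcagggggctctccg

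Top2a held 6 such matches, 5 of them as ATTGG, whose first bases lay at -227, -189, -149, -98, -78 and -58 from the start site. Ncapd2 held 3 matches, at -177, -148 and -48, and Top2b held 2, at -126 and -94. Smc2 and Ncapg held 1 each, and Ncaph, Ncapd3, Ncapg2 and Ncaph2 held none. Among the 32851 promoters of the same length in the RefSeq table, 37.4% held at least 1 match on either strand, 11.7% at least 2, 3.37% at least 3 and 0.0791% at least 6. The letters TTTGAA, searched on both strands as TTTGAA and TTCAAA, occur in the cell cycle homology region of some cell cycle promoters. They were found 2 times each in the promoters of Top2a and Smc2, and once each in Ncapd2, Ncapg, Ncapg2 and the second Ncapd3 promoter, without overlap with a CCAAT match. At least 1 match was held by 17.9% and at least 2 by 2.31% of all promoters. A match of letters is a description and shows no binding.

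Of the 10 genes, 5 were called higher in knockout oocytes (Top2a, Top2b, Smc4, Ncapd2 and Ncapg), and none was called lower. All 10 passed the filter of 1 FPKM in at least 4 libraries, and calls used limma on log2(FPKM + 1) with a Benjamini-Hochberg adjusted p under 0.05 over 11235 tested genes. Of all tested genes, 17.7% were called higher and 25.6% lower, so that 43.4% were called in either direction. For the 0 genes called lower, 1 had an unadjusted limma p under 0.05, and limma-voom on recovered reads also called 0. The median log2 fold change was 0.62 over the 10 genes and -0.12 over all tested genes. Libraries did not overlap between genotypes for 3 of the genes, Top2a, Top2b and Smc4, against 39.9% of all tested genes. Changes depended on the base composition of transcripts: the tenth of tested genes with the lowest GC content (28.9% to 41.1%) had a median log2 fold change of 0.52, and the tenth with the highest (57.5% to 72.8%) had -0.89. After a per-library correction for GC content these medians were -0.19 and -0.23, and 3 of the 10 genes were called higher (Top2a, Smc4 and Ncapd2) and 1 lower (Smc2), with 14.6% and 23.8% of all genes called higher and lower (38.3% in either direction).

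**Figure D1:**
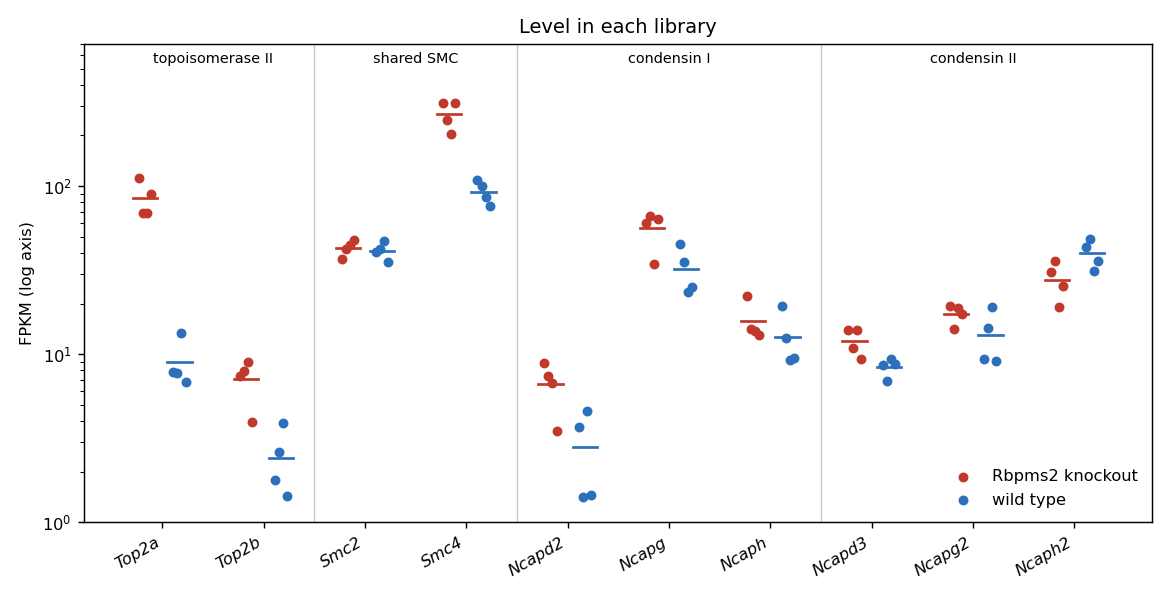
FPKM on a log axis for each of the 10 genes, with knockout libraries left of wild-type libraries; each point is 1 library and each bar is the mean of 4. Top2a lies at 69.0 FPKM or above in the 4 knockout libraries and at 13.4 FPKM or below in the 4 wild-type libraries, while Smc2 lies at 35.3 to 47.9 FPKM in all 8.

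Top2a, the topoisomerase II of dividing cells, had the largest rise of the 10 genes. The gene (ENSMUSG00000020914, chromosome 11, 98992943 to 99024189, minus strand) had 111, 69.4, 69.0 and 89.5 FPKM in knockout libraries 1 to 4, against 7.79, 7.76, 13.4 and 6.79 FPKM in wild-type libraries 1 to 4. The lowest knockout library was more than 5 times as high as the highest wild-type library. Means were 84.8 ± 20.1 FPKM in the knockout and 8.93 ± 3.00 FPKM in the wild type (SD, n = 4 each), a 9.50-fold ratio. On the log2(FPKM + 1) scale the rise was 3.13 (SE 0.25, 95% interval 2.58 to 3.68, adjusted p = 8.47e-06), and 121 tested genes rose more. It rested on 35949 reads in the knockout and 3059 in the wild type, and was called in all 22 alternatives (2.69 to 3.58). Top2a was highest in knockout library 1, which held the most endothelial marker RNA, and next in knockout library 4, where granulosa and stromal markers summed to 13.2 and 11.8 FPKM. Without knockout library 1 the rise was 2.99, and without the 3 libraries richest in granulosa and stromal markers (knockout 2 and 3, wild type 3) it was 3.58. The second of these fits still held knockout library 1, and the part of other cells' RNA in the rise was not tested.

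Top2b, the isoform that postmitotic cells also make, rose as well, from fewer reads and by less. The gene (ENSMUSG00000017485, chromosome 14, 16365179 to 16435462, plus strand) had 7.37, 7.92, 9.02 and 3.96 FPKM in knockout libraries, against 1.78, 2.60, 3.88 and 1.42 FPKM in wild-type libraries. Knockout library 4 was the lowest of its genotype and only just above wild-type library 3, the highest of the wild type. Means were 7.07 ± 2.18 FPKM in the knockout and 2.42 ± 1.09 FPKM in the wild type (SD, n = 4 each), a 2.92-fold ratio. The log2 rise was 1.24 (SE 0.33, 95% interval 0.52 to 1.96, adjusted p = 0.0104). After GC correction it was 0.72 and no longer called (adjusted p = 0.121). A pseudocount of 5 brought it to 0.69, still called. Exons of Rarb on the other strand share 12.3% of the exon bases of Top2b, and Rarb averaged 0.10 FPKM in the knockout and 0.07 FPKM in the wild type. The strand setting of the counting is not known here, and without strand both levels may miss reads from the shared bases.

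Comparing Top2a with Top2b within each library asks whether the rises of the paralogs differ. Top2a stood at 15.1, 8.77, 7.66 and 22.6 times the FPKM of Top2b in knockout libraries, against 4.37, 2.98, 3.45 and 4.77 times in wild-type libraries. The groups did not overlap, and the 4 knockout ratios spread more widely than the 4 wild-type ratios. As log2 ratios of FPKM + 1 the means were 3.43 ± 0.65 in the knockout and 1.55 ± 0.18 in the wild type (SD, n = 4 each), a difference of 1.88. An exact two-sided permutation test gave p = 0.0286, the smallest that 4 against 4 libraries can give, and 0.0714 after Benjamini-Hochberg adjustment over the 5 pairs compared, above the threshold of 0.05. The larger rise of Top2a than of Top2b thus did not pass the adjusted test as planned. No pair could pass it unless at least 3 of the 5 pairs reached the smallest p, so this result also depends on the other pairs. The difference between Top2a and Top2b passed after GC correction (1.97, exact permutation test, adjusted p = 0.0476), when 3 of the 5 pairs reached the smallest p.

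Smc4, which forms with SMC2 the ATPase arms of both condensins, was the most abundant of the 10 genes in either genotype. The gene (ENSMUSG00000034349, chromosome 3, 69004738 to 69034623, plus strand) had 312, 246, 203 and 311 FPKM in knockout libraries, against 108, 101, 85.8 and 75.7 FPKM in wild-type libraries. All 4 knockout libraries lay above all 4 wild-type libraries. The mean was 268 ± 53.3 FPKM in the knockout and 92.7 ± 14.7 FPKM in the wild type (SD, n = 4 each), a 2.89-fold ratio. The log2 rise was 1.51 (SE 0.20, 95% interval 1.08 to 1.95, adjusted p = 0.000174) and 0.86 after GC correction (adjusted p = 0.00307), called in all 22 alternatives.

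Smc2, the partner of SMC4, did not move with it. The gene (ENSMUSG00000028312, chromosome 4, 52439243 to 52488260, plus strand) had 37.0, 42.1, 44.7 and 47.9 FPKM in knockout libraries, against 40.4, 42.3, 47.3 and 35.3 FPKM in wild-type libraries. The groups overlapped nearly completely, with a log2 fold change of 0.06 (SE 0.18, 95% interval -0.33 to 0.44, adjusted p = 0.818). After GC correction Smc2, with 39.7% GC among the genes of low GC content, was called lower (-0.63, adjusted p = 0.0140). Smc2 stood at 0.119, 0.171, 0.221 and 0.154 times the FPKM of Smc4 in knockout libraries, against 0.372, 0.420, 0.551 and 0.467 times in wild-type libraries, without overlap. The mean log2 ratio of FPKM + 1 was -2.60 ± 0.37 in the knockout and -1.14 ± 0.24 in the wild type (SD, n = 4 each). Its difference of -1.46 gave p = 0.0286 and 0.0714 adjusted over the 5 pairs in the exact two-sided permutation test. After GC correction it was -1.49 with an adjusted p of 0.0476 in the exact permutation test.

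**Figure D2:**
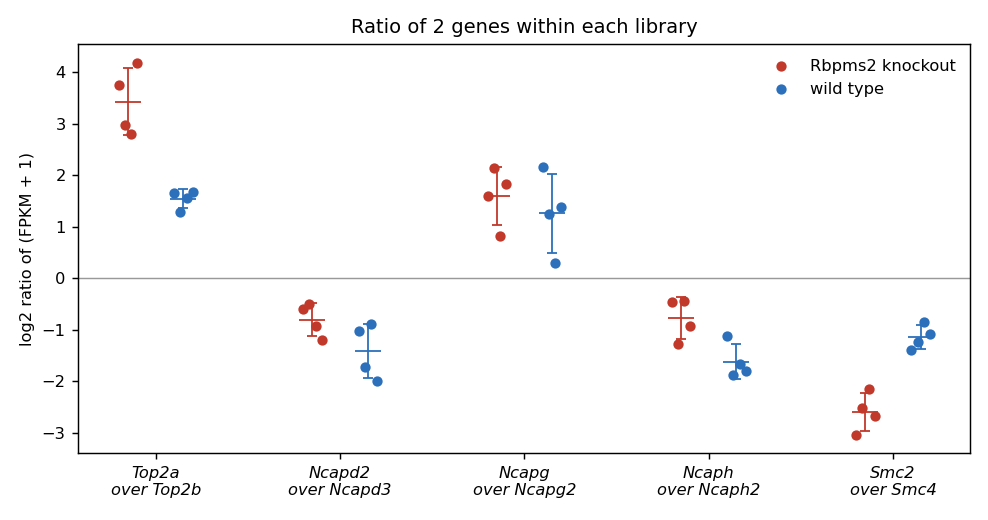
Log2 ratio of FPKM + 1 between 2 genes of the same library for 5 pairs, with knockout libraries left of wild-type libraries; points are libraries, and the bars give the mean ± SD of 4. The genotypes separate for Top2a over Top2b (mean 3.43 in the knockout and 1.55 in the wild type) and for Smc2 over Smc4 (-2.60 in the knockout and -1.14 in the wild type), and overlap for the other pairs.

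Condensin I was represented by Ncapd2, Ncapg and Ncaph, of which the HEAT-repeat subunit genes Ncapd2 and Ncapg were called higher and the kleisin gene Ncaph was not. Ncapd2 (ENSMUSG00000038252, chromosome 6, 125168007 to 125191701, minus strand) had 8.81, 7.46, 6.78 and 3.503 FPKM in knockout libraries, against 3.70, 1.41, 4.59 and 1.46 FPKM in wild-type libraries. Knockout library 4 lay below wild-type libraries 1 and 3, so the groups overlapped. Means were 6.64 ± 2.26 FPKM in the knockout and 2.79 ± 1.61 FPKM in the wild type (SD, n = 4 each), and the log2 rise was 1.06 (SE 0.37, 95% interval 0.23 to 1.88, adjusted p = 0.0405). The call was lost without knockout library 1 (adjusted p = 0.101), 2 (0.0845) or 3 (0.0648), without wild-type library 2 (0.116) or 4 (0.117), without a filter on low values (0.0858) and without the 3 marker-rich libraries (0.0792). The rise was 1.13 in that last fit, and 0.87 to 1.29 with 1 library left out. A pseudocount of 5 gave 0.58, still called. After GC correction the rise was 1.39 (adjusted p = 0.0126).

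Ncapg, the other HEAT-repeat subunit gene (ENSMUSG00000015880, chromosome 5, 45669919 to 45700546, plus strand), had 60.5, 66.3, 34.3 and 63.8 FPKM in knockout libraries, against 45.2, 35.1, 23.5 and 25.2 FPKM in wild-type libraries. Knockout library 3 was low and lay below wild-type libraries 1 and 2, while the other knockout libraries lay above all wild-type libraries. Means were 56.2 ± 14.8 FPKM in the knockout and 32.3 ± 10.0 FPKM in the wild type (SD, n = 4 each), a log2 rise of 0.79 (SE 0.27, 95% interval 0.18 to 1.39, adjusted p = 0.0388). With 34.8% GC, Ncapg had the lowest GC content of the 10 genes, and after GC correction its log2 fold change was -0.16 (adjusted p = 0.661). The call was also lost without knockout library 1 (adjusted p = 0.0885), 2 (0.0911) or 4 (0.0878), without wild-type library 2 (0.0607), 3 (0.0970) or 4 (0.109), without a filter (0.0691) and without the variance trend (0.0576). Exons of Lcorl on the opposite strand share 13.4% of the exon bases of Ncapg, and Lcorl averaged 7.07 FPKM in the knockout and 2.08 FPKM in the wild type. Whether the counting used strand is not given in the sources used here, and without strand reads from that stretch cannot be assigned to either gene.

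Ncaph, whose product closes the condensin I ring (ENSMUSG00000034906, chromosome 2, 127103809 to 127133954, minus strand), had 22.1, 14.1, 13.8 and 13.0 FPKM in knockout libraries, against 19.4, 12.4, 9.22 and 9.51 FPKM in wild-type libraries. Library 1 was the highest in both genotypes, and the ranges overlapped. The log2 fold change was 0.33 (SE 0.28, 95% interval -0.29 to 0.94, adjusted p = 0.363), and none of the 22 alternatives called it. The value was 0.16 without knockout library 1, 0.21 without wild-type library 3 and 0.54 without wild-type library 1.

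No condensin II subunit gene was called by limma, and Ncaph2 was the only 1 of the 3 with an unadjusted limma p under 0.05. Limma-voom on recovered reads also called none of them. Ncapd3, a HEAT-repeat subunit gene (ENSMUSG00000035024, chromosome 9, 27030175 to 27095315, plus strand), had 13.9, 10.9, 13.8 and 9.38 FPKM in knockout libraries, against 8.63, 6.95, 9.40 and 8.74 FPKM in wild-type libraries. Of the knockout libraries only library 4 reached into the wild-type range, where it lay just below wild-type library 3. The log2 fold change was 0.46 (SE 0.22, 95% interval -0.04 to 0.95, adjusted p = 0.122), and median-of-ratios scaling (adjusted p = 0.0462) or quantile normalization (0.0341) made it a call. The median of all tested genes was -9.53e-05 and 0.04 under these scalings, against -0.12 without them. The log2 fold change of Ncapd3 was 0.27 after GC correction.

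Ncapg2, the other HEAT-repeat subunit gene of condensin II (ENSMUSG00000042029, chromosome 12, 116405402 to 116463731, plus strand), had 19.3, 14.2, 18.9 and 17.2 FPKM in knockout libraries, against 9.38, 14.3, 19.1 and 9.07 FPKM in wild-type libraries. Wild-type libraries 2 and 3 lay within the knockout range and libraries 1 and 4 below it. The log2 fold change was 0.45 (SE 0.26, 95% interval -0.13 to 1.03, adjusted p = 0.188), and 0.09 after GC correction (adjusted p = 0.805).

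Ncaph2, the kleisin gene of condensin II, was the one gene of the 10 with a log2 fold change below 0. The gene (ENSMUSG00000008690, chromosome 15, 89355719 to 89372826, plus strand) had 30.7, 35.7, 19.0 and 25.5 FPKM in knockout libraries, against 43.4, 48.4, 31.4 and 35.7 FPKM in wild-type libraries. Knockout library 2 lay inside the wild-type range, just below wild-type library 4, and the other knockout libraries lay below all wild-type libraries. The difference was -0.52 (SE 0.23, 95% interval -1.04 to -0.003, limma adjusted p = 0.0951), with a call only under the replicate block (adjusted p = 0.0483), and it was -0.07 after GC correction. Ncaph2 had the highest GC content of the 10 genes, 55.7%. Exons of Sco2 and Tymp on the opposite strand share 19.7% and 12.7% of its exon bases, and Sco2 averaged 0.00 FPKM in both genotypes. As for Ncapg, the strand setting of the counting is not known here. Without strand, reads from the shared bases cannot be assigned, so the levels of Sco2 and Ncaph2 may miss them.

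**Figure D3:**
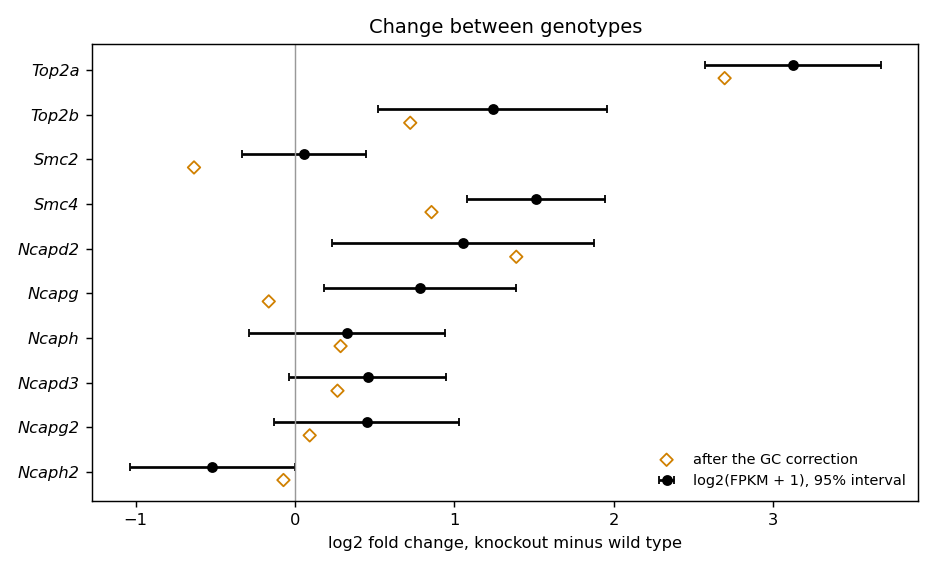
Log2 fold change of log2(FPKM + 1), knockout minus wild type, for the 10 genes; black points carry 95% intervals from limma and orange diamonds give the value after GC correction. Top2a (3.13) and Smc4 (1.51) stay above 0 by either measure, while the diamonds of Smc2 (-0.63) and Ncapg (-0.16) lie below 0.

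Between the complexes, condensin I subunit genes gained on those of condensin II in the point estimates, without a pair that passed the test. Ncapd2 over Ncapd3 had a mean log2 ratio of -0.81 ± 0.32 in the knockout and -1.41 ± 0.53 in the wild type (SD, n = 4 each; difference 0.60, exact permutation p = 0.143, adjusted 0.179). Ncaph over Ncaph2 had -0.77 ± 0.40 in the knockout and -1.62 ± 0.34 in the wild type (difference 0.85, exact permutation p = 0.0571, adjusted 0.0952). Ncapg over Ncapg2 had 1.60 ± 0.56 in the knockout and 1.27 ± 0.77 in the wild type (difference 0.34, exact permutation p = 0.514, adjusted 0.514). After GC correction Ncapd2 over Ncapd3 passed (difference 1.12, exact permutation test, adjusted p = 0.0476), the sign of Ncapg over Ncapg2 turned to -0.26, and the difference of Ncaph over Ncaph2 was 0.36 (adjusted p = 0.25). Leaving out wild-type library 3 brought the difference of Ncapg over Ncapg2 to 0.01, and with any other library left out it was 0.15 to 0.63. The kleisin pair shows what the ratios mean in levels: Ncaph stood at 0.721, 0.396, 0.726 and 0.511 times the FPKM of Ncaph2 in knockout libraries, against 0.447, 0.256, 0.293 and 0.267 times in wild-type libraries, so that Ncaph2 was the more abundant kleisin transcript in every library.

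The mean log2(FPKM + 1) of the 3 condensin I genes minus that of the 3 condensin II genes was 0.18, 0.13, -0.18 and -0.10 in knockout libraries, against -0.0006, -0.79, -0.76 and -0.80 in wild-type libraries. Knockout libraries lay around 0, where the complexes have equal averages, and wild-type libraries other than library 1 lay well below it. The difference between genotype means was 0.59, and it is given as a description without a test. Leaving out 1 library at a time gave 0.52 to 0.79, the highest without wild-type library 1. Of the 8 condensin genes, 3 (37.5%, against 17.7% of all tested genes) were called higher, with a median log2 fold change of 0.45 and a range of -0.52 to 1.51. After GC correction Smc4 and Ncapd2 kept this call, Ncapg lost it and Smc2 was called lower. Of all genes, 14.6% were then called higher and 23.8% lower.

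The order of the levels changed mainly through Top2a. In the knockout Smc4 (268 FPKM) and Top2a (84.8 FPKM) came first, each with a range that did not reach the next gene, followed by Ncapg and Smc2, whose ranges overlapped. Ncaph2, Ncapg2, Ncaph and Ncapd3 came next, neighbours in that order overlapping, and Top2b and Ncapd2 were the lowest at 7.07 and 6.64 FPKM with overlapping ranges. In the wild type Smc4 (92.7 FPKM) stood alone, Smc2, Ncaph2 and Ncapg formed a chain of overlapping ranges, and Top2a (8.93 FPKM) was 7th, its range overlapping those of its neighbours Ncaph and Ncapd3. Ncapd2 and Top2b were again the lowest and overlapped.

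Before GC correction, regulators and partners of condensin and topoisomerase II were called in either direction about as often as all tested genes. Of 25 tested partner genes, 5 were called higher and 6 lower (44.0% in all, against 43.4% of all tested genes). Their median log2 fold change was -0.33. After GC correction 4 were called higher and 11 lower, against 14.6% and 23.8% of all tested genes, and the median was -0.51. Mcph1, whose product restrains condensin II, had 9.45, 6.52, 9.30 and 6.98 FPKM in knockout libraries, against 28.5, 26.7, 33.0 and 28.1 FPKM in wild-type libraries (log2 fold change -1.74, SE 0.21, adjusted p = 9.65e-05). Kif4, a chromokinesin that works with condensin on chromosome arms, had 14.7, 17.2, 12.1 and 17.8 FPKM in knockout libraries, against 35.8, 41.0, 44.0 and 48.3 FPKM in wild-type libraries (-1.40, SE 0.20, adjusted p = 0.000291). Neither gene had overlapping groups, and both changes were about as large after GC correction (-1.68 and -1.46).

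Of the chromosomal passenger genes, whose kinase phosphorylates condensin in mitosis, Aurkc, Aurkb, Incenp and Birc5 were called lower, and Cdca8 was not (-0.49, adjusted p = 0.0736). After GC correction Cdca8 was called lower as well (-0.57, limma adjusted p = 0.0441). Aurkc, the germ cell form of the kinase, had 1.68, 0.0452, 0.496 and 1.44 FPKM in knockout libraries, against 12.5, 7.73, 6.30 and 15.7 FPKM in wild-type libraries (log2 fold change -2.61, SE 0.39, adjusted p = 0.000401). Aurkb had 3.98, 4.04, 4.10 and 0.852 FPKM in knockout libraries, against 9.27, 10.7, 7.32 and 10.2 FPKM in wild-type libraries (-1.39, SE 0.35, adjusted p = 0.00892). The scaffold gene Incenp had 18.6, 20.8, 16.1 and 10.3 FPKM in knockout libraries, against 34.96, 33.3, 40.2 and 41.6 FPKM in wild-type libraries (-1.18, SE 0.23, adjusted p = 0.00224). Knockout and wild-type libraries did not overlap for any of the 3. After GC correction Aurkc, Aurkb and Incenp had -2.42, -1.14 and -0.79 and were still called lower. Birc5 and Cdca8 encode the other subunits and were named after their values were seen; Birc5 fell by 0.54 on the log2 scale (adjusted p = 0.0423).

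Among the partner genes that rose, Sgo2a, which protects centromeric cohesion in meiosis, had 9.37, 7.88, 8.52 and 12.8 FPKM in knockout libraries, against 2.30, 2.20, 2.20 and 2.56 FPKM in wild-type libraries (log2 fold change 1.66, SE 0.24, adjusted p = 0.000374). Tdp2, which removes trapped topoisomerase II from DNA ends, had 64.1, 79.8, 64.8 and 116 FPKM in knockout libraries, against 41.3, 36.6, 29.8 and 27.0 FPKM in wild-type libraries (1.22, SE 0.23, adjusted p = 0.00184). The groups did not overlap for either gene, and both were still called higher after GC correction (1.03 for Sgo2a and 0.77 for Tdp2). Akap8l and Nusap1, named after their values were seen, rose by 0.92 and 0.95 (adjusted p = 0.00746 and 0.0107), the second with 0.40 after GC correction (adjusted p = 0.214). Cdk1 (-0.45, adjusted p = 0.172), Plk1 (0.11, adjusted p = 0.757) and Tdp1, which removes trapped topoisomerase I (-0.37, adjusted p = 0.378), were not called.

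A list of 10 tested genes held the other topoisomerases together with genes that work with them, such as the helicase gene Blm with Rmi1 and Rmi2, and the ligase gene Topors. Of these, 2 were called higher and none lower (20% in all, against 17.7% of all tested genes called higher and 25.6% lower), and the median log2 fold change was 0.18; at an unadjusted limma p under 0.05, 1 was lower, and limma-voom called 0 lower. Both called genes encode the topoisomerase VI-like complex that makes meiotic DNA breaks. Spo11, its catalytic subunit, had 32.6, 9.37, 13.9 and 37.6 FPKM in knockout libraries, against 1.39, 0.231, 0.151 and 0.674 FPKM in wild-type libraries (log2 fold change 3.78, SE 0.44, adjusted p = 9.36e-05). Its partner Top6bl, listed under the symbol Gm960, had 3.95, 1.60, 2.95 and 3.59 FPKM in knockout libraries, against 0.565, 0.897, 0.960 and 2.01 FPKM in wild-type libraries (0.93, adjusted p = 0.0386), with overlapping groups. Only 1 gene of the list was called higher without any 1 of knockout library 1 or 4 or wild-type library 1, 2 or 3, and 1 was called lower without knockout library 3. Top1 (0.28, adjusted p = 0.313), Top3a (-0.09, adjusted p = 0.766) and Top3b (0.17, adjusted p = 0.630), which relax DNA by cutting a lone strand, were not called.

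The other SMC genes, which encode the arms of cohesin and of the SMC5/6 complex with its subunits, were called higher in 7 of 13 cases and lower in none. This share of 53.8% stood against 17.7% of all tested genes called higher and 25.6% lower, and the median log2 fold change was 0.59. After GC correction 5 were called higher and 0 lower, against 14.6% and 23.8% of all tested genes, and the median was 0.29. Before the correction no gene was lower at an unadjusted limma p under 0.05, and limma-voom called 0 lower. Smc1b, the meiotic cohesin arm, had 596, 498, 545 and 778 FPKM in knockout libraries, against 202, 235, 238 and 191 FPKM in wild-type libraries (1.46, SE 0.18, adjusted p = 0.000124). Its partner Smc3 rose by 1.42 (adjusted p = 0.000197). Smc5 had 29.1, 18.9, 27.9 and 27.7 FPKM in knockout libraries, against 8.20, 9.94, 11.9 and 7.67 FPKM in wild-type libraries (1.37, SE 0.23, adjusted p = 0.000795). Smc6 had 32.8, 40.6, 35.1 and 32.7 FPKM in knockout libraries, against 13.96, 16.7, 13.9 and 11.5 FPKM in wild-type libraries (1.28, SE 0.19, adjusted p = 0.000410). Smc1b, Smc5 and Smc6 had no overlap between genotypes, and after GC correction Smc1b, Smc3, Smc5 and Smc6 had 0.78, 0.91, 0.62 and 0.64. Eid3, a germline subunit of SMC5/6, had 5.44, 2.16, 3.28 and 2.24 FPKM in knockout libraries, against 0, 0, 0.0908 and 0.184 FPKM in wild-type libraries (1.94, adjusted p = 0.000644). Nsmce2 and Slf1, named after their values were seen to complete the count, rose by 0.59 and 0.86 (adjusted p = 0.02 and 0.0122), and neither was called after GC correction (0.29, adjusted p = 0.199, for Nsmce2 and 0.04 for Slf1). Smchd1, a non-canonical SMC protein of the inactive X chromosome, had -0.08 (adjusted p = 0.784).

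**Figure D4:**
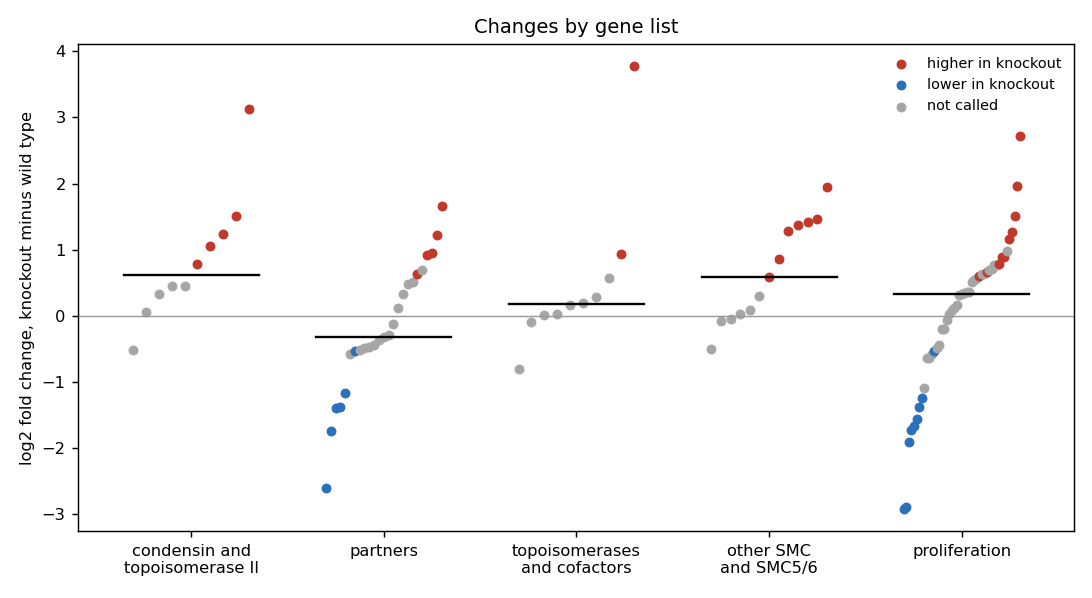
Log2 fold change of log2(FPKM + 1), knockout minus wild type, of the 10 genes and of the members of the 4 related lists; each dot is a tested gene, its colour gives the call, and the line marks the list's median. The partner list has its median below 0 (-0.33) and the list of other SMC genes above it (0.59).

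Proliferation genes were called in either direction about as often as all tested genes, and their relation to the rise of Top2a was not tested. Of 47 tested genes of the mitotic cycle, 10 were called higher and 9 lower (40.4%, against 43.4% of all tested genes called in either direction). Their median log2 fold change was 0.32, and 7 of them are also on the partner list. After GC correction 7 were called higher and 12 lower, against 14.6% and 23.8% of all tested genes, and the median was 0.18. Mki67, which coats mitotic chromosomes and marks dividing cells, had 14.3, 10.2, 19.2 and 5.99 FPKM in knockout libraries, against 6.40, 7.88, 16.1 and 4.25 FPKM in wild-type libraries (0.51, SE 0.41, adjusted p = 0.336). It was highest in library 3 of each genotype, where granulosa and stromal markers were also highest, and its ranges overlapped. Cdc20 had 116, 231, 76.2 and 132 FPKM in knockout libraries, against 27.8, 18.3, 12.9 and 18.3 FPKM in wild-type libraries (2.72, adjusted p = 0.000112). Ube2c, which works with the same ubiquitin ligase as Cdc20, had 53.2, 74.9, 42.6 and 64.5 FPKM in knockout libraries, against 473, 501, 299 and 499 FPKM in wild-type libraries (-2.89, adjusted p = 8.43e-06). These genes, neither with overlapping groups, moved in opposite directions. Of the regulators of S phase entry, Ccne2 rose by 1.96 (adjusted p = 0.000201), while E2f1 and the replication licensing gene Cdt1 fell by 2.93 and 1.92 (adjusted p = 0.000189 and 0.000372). After GC correction Ccne2 had 1.08, E2f1 -2.325 and Cdt1 -1.34, all still called. Without knockout library 3, 16 of the list were called higher, beside 1792 of all 10677 tested genes.

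The genes whose log2(FPKM + 1) followed Top2a most closely over the 8 libraries were Tpst1, Syce3, Pramel3, Piga and Tex16, with Pearson r of 0.997, 0.996, 0.995, 0.994 and 0.994. Since the libraries fall into 2 genotypes, these values mostly restate the difference between genotypes. With each genotype's mean taken away the closest were Piga (0.973), Nrd1 (0.970), Ddx50 (0.961), Polq (0.959) and Dph6 (0.959), and Piga was on both lists. Among the other 9 genes described here Smc4 was closest over all libraries (0.961), and Ncapg2 was closest with the genotype means taken away (0.743). Each is a description over 8 libraries, in which the values of all genes come from the same amplified RNA.

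Without the 3 marker-rich libraries, Smc4 had 1.72 (adjusted p = 0.000490), Top2b 1.15 (adjusted p = 0.0356) and Ncapg 0.84 (adjusted p = 0.0320). In this limma fit 4 of the 10 genes were called higher, beside 1635 of all 9189 tested genes. This fit kept knockout libraries 1 and 4 and wild-type libraries 1, 2 and 4, which were not free of other cells' RNA. Endothelial markers summed to 299 FPKM in knockout library 1, and erythroid markers to 4211 FPKM in wild-type library 1. Immune markers summed to 17.4 to 449 FPKM in knockout libraries and 7.05 to 24.1 FPKM in wild-type libraries, and erythroid markers to 99.6 to 3212 FPKM in knockout libraries and 11.9 to 5368 FPKM in wild-type libraries. The part of these cells in the changes of the 10 genes was not tested.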

How the data were processed

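RNA sequencing of 8 libraries was analysed, 4 from Rbpms2 knockout and 4 from wild-type oocytes. The deposited values are FPKM per gene, in 1 table of 21959 genes. Per the submitters' processing notes the authors used cutadapt, HISAT2 and HTSeq with GRCm38 (mm10); tool versions, annotation release and strand setting were not given in the sources used here. A microarray is mentioned in the labels' protocols, but the values are those of sequencing. Symbols for 21851 genes, union exon lengths for 21902, GC content and exon overlaps came from GENCODE M21. Low FPKM values were multiples of what 1 read is worth (97.4% to 97.6% of values per library whole within 0.02 reads), and this gave the depths. Amplified reads without molecular identifiers are not independent molecules. Libraries of a genotype differed by more than sampling noise (chi-square at least 33.6 times its degrees of freedom).

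The 10 genes, the other gene lists and the alternatives were chosen with earlier results of these data known. The 11235 genes that reached 1 FPKM in 4 or more libraries entered a limma 3.58.1 fit (R 4.3.3) of log2(FPKM + 1), eBayes with trend and genotype as the only term, two-sided, called at a Benjamini-Hochberg adjusted p under 0.05. Folds on this scale understate changes of low genes; a fold given as a ratio is of mean FPKM. Ratios of 5 gene pairs were compared between genotypes by an exact two-sided permutation test of all 70 splits. Named were the 10 genes, 19 fixed regulators and relatives, per list up to 5 called genes of lowest p, and the 5 genes most like Top2a by each measure. Alternatives were other pseudocounts (0.1 and 5), filters (none, 5 FPKM), scalings, variance models, a replicate block, a per-library loess correction for GC content (span 0.5) and each library left out. A limma-voom fit on the recovered reads, run because the values came in whole reads, called the same numbers of the 10 genes as the FPKM fit, and a fit without 3 marker-rich libraries was run; both were added after the data were seen. Figures used Python 3.11.15 and matplotlib 3.10.9. The tests were checked on simulated data. For the limma fit these held far fewer changed genes than were called here and no shift with GC content. The error rate in data like the real ones was thus not checked. The values of 2 list genes are not reported here.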

Additional observations from a re-analysis of the deposited data

Results flagged for a closer look

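A value was picked out where 1 of the 4 libraries of a genotype stood far from the other 3 (Dixon's 95% criterion), which chance gives in about 1 in 20 groups; 46 groups were checked and 5 stood out. Top2a in wild-type library 3 was 13.4 FPKM, against 6.79 to 7.79 FPKM in the other wild-type libraries, and remained far below the 69.0 FPKM of the lowest knockout library. Ncaph in knockout library 1 was 22.1 FPKM, against 13.0 to 14.1 FPKM in the other knockout libraries. The condensin I minus condensin II difference in wild-type library 1 was -0.00062, against -0.803 to -0.757 in the other wild-type libraries. Endothelial markers summed to 299 FPKM in knockout library 1, against 3.23 to 6.08 FPKM in the other knockout libraries. Immune markers summed to 449 FPKM in knockout library 3, against 17.4 to 55.0 FPKM in the others.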

How the results depend on the processing

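Top2a and Smc4 kept their call and direction in all 22 alternatives, and Top2b in 19 of 21. Of the 10 genes, 3 were called higher without a filter, with the 5 FPKM filter (under which Top2b and Ncapd2 were not tested), with the GC correction and with the GC correction plus replicate block, and 3 to 5 with 1 library left out. Among all tested genes those called higher were 1886 of 18645 without a filter, 1617 of 7427 with the 5 FPKM filter and 1634 of 11220 with the GC correction. The count was 1803 of 11220 with the block added, and 1465 to 1792 with 1 library left out. Of the 10 genes, 1 was called lower under the replicate block, the GC correction and both together, and 0 with any library left out. Called lower among all tested genes were 2921, 2665 and 2719 in these 3 fits, and 1995 to 3010 with 1 library left out. The GC correction reversed Smc2 (-0.63), Ncapg (-0.16) and Ncapg over Ncapg2 (-0.26), with or without the block, and took Top2a over Top2b (1.97), Ncapd2 over Ncapd3 (1.12) and Smc2 over Smc4 (-1.49) past the threshold. Smc2 had -0.015 to 0.12 with 1 library left out, below 0 only without wild-type library 4. The cause of these changes was not tested. Partner genes called higher numbered 3 without the 3 marker-rich libraries, and those called lower 11 under the GC correction with or without the block. Genes of the topoisomerase list called higher numbered 1 without the marker-rich libraries and 1 to 2 with 1 library left out, and those called lower 1 in eBayes without trend and 0 to 1 with 1 library left out. Other SMC genes called higher numbered 4 under the GC correction with replicate block, and those called lower 1 without the marker-rich libraries. Proliferation genes called higher numbered 7 to 16 with 1 library left out. Deviations of same-numbered libraries correlated at 0.185, 0.0158, 0.361 and -0.053, and those of libraries with different numbers at -0.341 to 0.33. Of the same-numbered values only 0.361 lay above that range, so they cannot decide whether the numbers pair the samples. For the gene pairs under the replicate block, an exact sign-flip permutation test over 4 numbers cannot go below p = 0.125. With 4 tubes per genotype, the smallest exact permutation p is 0.0286, which passes adjustment over 5 pairs only when at least 3 pairs reach it.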
